A study of Mus musculus with 6 samples.

Results

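Acetylcholinesterase and the receptors for acetylcholine were examined in 6 samples of mouse hippocampus, each measured on its own oligonucleotide array. The set holds 7 genes: Ache, the muscarinic receptor genes Chrm1 and Chrm4, the nicotinic subunit genes Chrna4, Chrna7 and Chrnb2, and Chat. Members were all probe sets annotated to 1 of these symbols. Ache, Chrm1, Chrm4, Chrna7 and Chrnb2 had 1 probe set each, so 5 of the 7 genes and 5 of 12488 probe sets enter here. No probe set in the annotation used carried the symbol Chrna4 or Chat, and these genes were not analysed here.

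According to its title, the study is of mice overexpressing HuD, an RNA-binding protein of neurons whose gene is Elavl4. All 6 samples are total RNA of hippocampus, and no label gives the genotype, strain, age or treatment of any of them or says whether animals were pooled. The samples therefore belong to no group, no sample is called transgenic or control, and they are named by the numbers 1 to 6 in their titles. The titles also hold a pair of codes that are not explained: e is 1 in every title, and le is 2 in the title of sample 2 and 1 in the rest. Values are given sample by sample, without averages over samples.

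Acetylcholine reaches the hippocampus mainly along fibres from the medial septum, whose cell bodies make it with choline acetyltransferase (Chat) and load it into vesicles with the transporter Slc18a3. Acetylcholinesterase (Ache) ends the signal by hydrolysing the transmitter in the synaptic cleft. Muscarinic receptors act through G proteins: M1 (Chrm1) is the main muscarinic receptor of pyramidal neurons and couples to Gq, whereas M4 (Chrm4) couples to Gi/o and lowers cyclic AMP. Nicotinic receptors are ligand-gated cation channels. The alpha7 subunit (Chrna7) forms channels by itself that are highly permeable to calcium, and the alpha4 (Chrna4) and beta2 (Chrnb2) subunits assemble with each other into the high-affinity nicotine receptor of the brain. Ache mRNA has been reported as a target of HuD.

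The values are signal intensities on a linear scale, 1 per probe set. For comparison between arrays each was divided by the median of its array and put on the log2 scale, so that 0 is the array median. The array medians lay between 59.9 and 63.3. Detection calls were not used here, so a value under the array median is not shown to be above background. The range of a gene is its highest minus its lowest log2 value. Its replicate error is unknown, because no label marks any of the samples as replicates. The 3' to 5' signal ratios of the transferrin receptor (2.54 to 3.47) and pyruvate carboxylase (1.57 to 3.56) control probe sets were highest in sample 3. The same ratios for beta-actin (1.11 to 1.27) and Gapdh (0.79 to 0.86) were highest in sample 1. The summed signal of 5 choroid plexus genes went from 134 in sample 1 to 2133 in sample 6.

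The tissue label was set beside markers of the hippocampus and its neighbours. Of 7 pyramidal neuron markers, 5 were measured and all 5 had a median above the array median, as had 3 of the 5 measured dentate granule markers and 8 of the 9 measured interneuron markers. The dentate markers under it were Prox1 (median log2 value -0.43) and Trpc6. Of all 8251 named genes, 4838 had a median above the array median, a share near that of the dentate markers. Markers of neighbouring tissue passed the same criterion: 4 of 5 measured for thalamus, with a summed signal of 614 to 877, and 6 of 6 for meninges, with 3065 to 6941. These lists thus neither establish the tissue label nor show the tissue free of its neighbours, and no list of cortex markers was examined. Of 8 markers of septal and other cholinergic neurons only 3 were measured, Slc18a3, Lhx8 and Isl1. None of these 3 lay above the array median in any sample, and their summed signal lay between 10.3 and 29.7. Slc18a3 itself, the vesicular acetylcholine transporter, had signals of 3.5 to 6.2. No probe set thus showed a cholinergic cell body marker above the array median, which is a statement about 3 of the 8 markers only.

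The members Ache, Chrm1 and Chrna7, lay above the array median in all 6 samples, while Chrm4 and Chrnb2 lay under it in all 6. None of the 3 members above the median ranged more than 2-fold. Among all 4838 genes with a median above the array median, 200 did (4.13%), so a count of 0 in 3 is near that background. Their ranges were 0.58 for Ache, 0.44 for Chrm1 and 0.31 for Chrna7, with a median of 0.44, against a median of 0.40 over the 4838 genes.

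**Figure D1:**
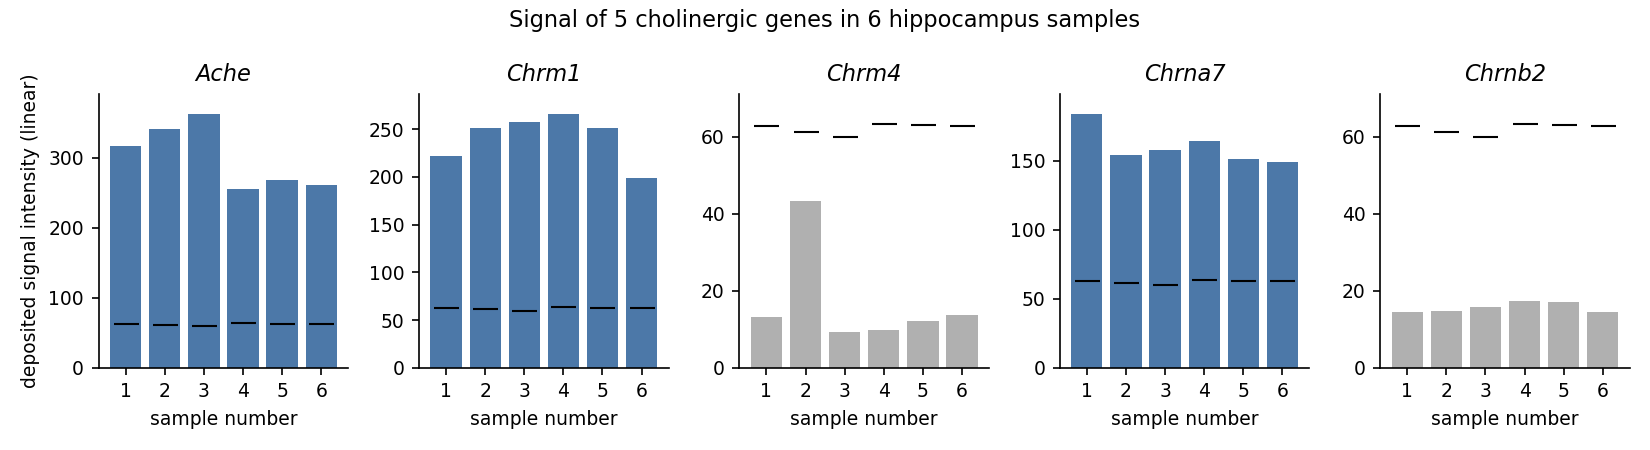
Deposited signal intensity (linear axis from 0, with its own scale in each panel) of the 5 measured genes in samples 1 to 6. Short black lines mark the median of each array, blue panels lie above it in all samples and grey panels under it, and Ache is tallest in samples 1 to 3 (316.9 to 362.7).

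Ache, the enzyme that breaks down acetylcholine, was the member above the array median that differed most from sample to sample. In samples 1 to 6 its signals were, in turn, 316.9, 341.2, 362.7, 256.0, 268.3 and 260.8. Sample 3 was highest and sample 4 lowest, with samples 5 and 6 close to sample 4 and samples 1 and 2 in between. After scaling, the highest sample was 1.50 times the lowest. This range was wider than that of 75.9% of all genes above the array median, and wider than that of 80.8% of the 2601 genes with a median log2 value between 1 and 3, among which the Ache median (2.21) falls.

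The order of the samples for Ache was 4, 6, 5, 1, 2, 3, from low to high, before and after scaling. The neighbours 4 and 6 differed by 2.62%, and 6 and 5 by 2.49%. Sample 1 exceeded sample 5 by 18.7%, sample 2 exceeded sample 1 by 10.2%, and sample 3 exceeded sample 2 by 8.87%. With no replicate error, none of these steps can be called larger than the error of a single array. The summed signal of GABAergic interneuron markers, 8 of the 9 above the array median, had the same extreme samples as Ache. It was highest in sample 3 (5253) and lowest in sample 4 (4426). Samples 1, 2, 5 and 6 had sums of 5240, 4651, 4873 and 4796. Of the 8, only Gad1, Sst and Calb2 had both of these extremes after scaling. Gad2 and Lhx6 were lowest in sample 1, Pvalb and Npy were lowest in sample 2, and Reln was highest in sample 1. The summed signal of choroid plexus genes parted samples 1 to 3 from samples 4 to 6 in the opposite direction to Ache. It was 134, 141 and 335 in samples 1 to 3, where Ache was higher, and 1802, 723 and 2133 in samples 4 to 6. Ttr gave 1798 of the signal in sample 6 and 20.5 of that in sample 1. Ttr, Folr1 and Kl were each lower in samples 1 to 3 than in samples 4 to 6. Aqp1 was instead highest in sample 1 (34.4), and Cldn2 was dim throughout (7.01 to 17.4). The thalamus and microglia sums parted the samples in the same direction as choroid plexus. For thalamus they were 614, 685 and 759 against 813, 877 and 767. For microglia they were 1215, 1305 and 1299 against 1352, 1332 and 1387. Hba-a1, an alpha-globin gene of red blood cells, whose membranes carry acetylcholinesterase, was lowest in sample 3 (865.7), where Ache was highest. The other samples, 1, 2, 4, 5 and 6, had Hba-a1 signals of 938.0, 1019, 1291, 974.7 and 1357. It was the only 1 of 4 measured blood markers above the array median, and the summed signal of the 4 lay between 949 and 1447. In such bulk tissue a smaller share of cells of a type and less RNA per cell cannot be told apart. The part of these tissue components, and of the high control ratios of sample 3, in the Ache values was not tested.

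Elavl4, the gene of HuD, is shown beside Ache because of the reported binding. Its signal was 84.6, 116, 96.2, 65.2, 82.5 and 110.4 in samples 1 to 6. Elavl4 and Ache were both lowest in sample 4, but Elavl4 was next to highest in sample 6, where Ache was next to lowest. The sources used here do not say whether the Elavl4 probe set reads a transgene transcript. Over the 6 samples Pearson's r between the log2 values was 0.54 (exact permutation p = 0.26, adjusted p = 0.59 over 4 pairs of genes by Benjamini-Hochberg) and Spearman's rho 0.54 (exact permutation p = 0.30, adjusted p = 0.50). Without samples 3 and 2, the 2 farthest from the Ache median, r was 0.12. With 1 sample left out, r was between 0.29 (without sample 4) and 0.85 (without sample 6), so no relation was established.

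Chrm1, the Gq-coupled muscarinic receptor of pyramidal neurons, had signals of 221.7, 251.2, 257.6, 266.2, 251.1 and 199.0 in samples 1 to 6. The samples 2 to 5 lay close together, with 1 and 6 below them. After scaling the order from low to high was 6, 1, 5, 2, 4, 3, and the steps between samples 5, 2, 4 and 3 were 2.89%, 2.69% and 2.27%. The deposited signal was highest in sample 4, whereas the scaled value was highest in sample 3. Sample 1 exceeded sample 6 by 11.5% and sample 5 exceeded sample 1 by 12.7%. The whole range was 1.36-fold, wider than that of 57.1% of genes above the array median. On the log2 scale it was 0.44, and 0.28 without sample 6. Pyramidal neuron markers gave another order: the list of 5 was lowest in sample 1, with a summed signal of 2190, and highest in sample 5, at 3414, while sample 6 had 2756.

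Chrna7, the subunit of the alpha7 nicotinic channel, varied least of these 3 genes. It had signals of 183.8, 154.4, 157.4, 164.0, 150.8 and 148.9 in samples 1 to 6. Sample 1 stood above the others, and the other 5 lay close together. After scaling, sample 1 exceeded the next sample, sample 3, by 11.4%, and the steps among the remaining 5 were between 0.89% and 5.25%. The range was 1.24-fold, or 0.31 on the log2 scale, and 0.15 without sample 1. Its range was wider than that of 29.0% of genes above the array median. In sample 1 the beta-actin and Gapdh control ratios were highest (1.27 and 0.86), and the part of RNA quality in this value was not tested.

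**Figure D2:**
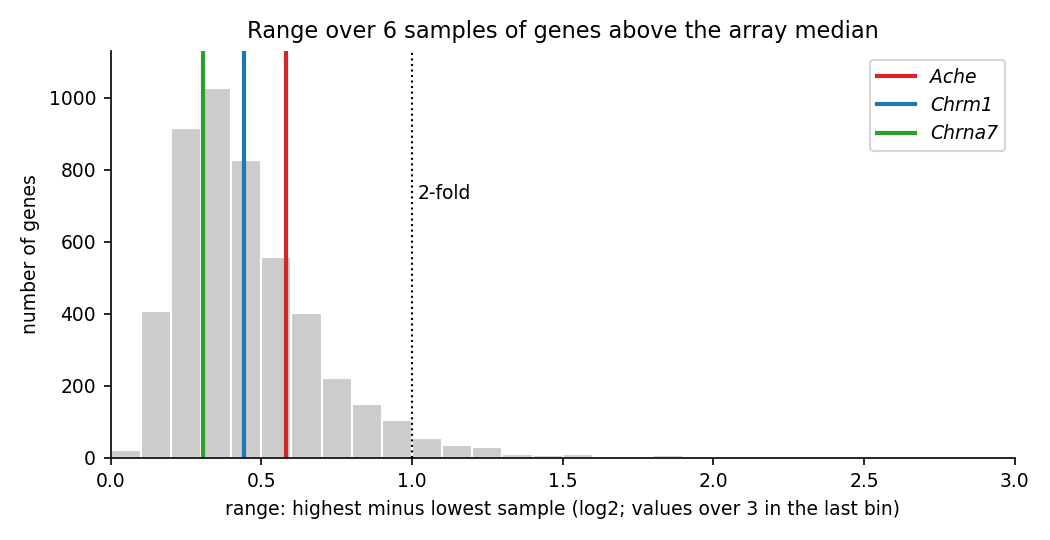
Histogram of the range over the 6 samples (log2, horizontal axis) for the 4838 genes above the array median (number of genes, vertical axis), with lines at Chrna7 (0.31), Chrm1 (0.44) and Ache (0.58). All 3 lie left of the dotted line at a 2-fold range, which 200 genes passed.

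The 3 genes did not run in 1 common order. Ache with Chrm1 had a Pearson's r of 0.40 over the 6 samples (exact permutation p = 0.45, adjusted p = 0.59) and a Spearman's rho of 0.37 (exact permutation p = 0.50, adjusted p = 0.50). Without samples 3 and 2 that r was -0.28. Ache with Chrna7 had an r of 0.43 (exact permutation p = 0.43, adjusted p = 0.59) and a rho of 0.43 (exact permutation p = 0.42, adjusted p = 0.50), and r was 0.82 without samples 3 and 2. Chrm1 with Chrna7 had an r of 0.09 (exact permutation p = 0.83, adjusted p = 0.83) and a rho of 0.43 (exact permutation p = 0.42, adjusted p = 0.50). No pair of the 4 passed an adjusted p of 0.05, where the smallest exact permutation p that 6 samples allow is 0.0014. The pair of receptors turned on samples 1 and 6: r was 0.98 without both, 0.79 without sample 1 alone and -0.63 without sample 6 alone. Without sample 1 that pair had an adjusted exact permutation p of 0.033 over 5 samples, from an unadjusted 0.0083. The latter is the smallest value that 5 samples allow. The adjustment covers the 4 pairs only, not the 6 samples left out in turn, and no pair passed with any other sample left out.

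Chrm4, the Gi/o-coupled muscarinic receptor, was dim on every array. Samples 1 to 6 had signals of 13.3, 43.5, 9.32, 9.74, 12.0 and 13.7. Sample 2 stood apart from the other 5, and even there the signal was under the array median of 61.4. Sample 2 is also the sample whose le code differs, and what that code marks is not known here. With values under 0.2 of the array median raised to it, the range was 1.82 (3.54-fold). With no such floor sample 2 was 4.60 times the lowest, and the range was 0 when the floor was set at the array median itself. Without sample 2 the range was 0.12. Counting all 5 measured members, Chrm4 was the 1 that ranged more than 2-fold, where 12.9% of all 8251 named genes did.

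Chrnb2, the beta2 nicotinic subunit, was also dim and nearly level. Its signals were 14.4, 14.9, 15.7, 17.4, 17.2 and 14.6 in samples 1 to 6, all far under the array medians. Samples 4 and 5 were highest and sample 1 lowest, a range of 1.20-fold. Whether any of these signals exceeds background was not shown, so no difference in beta2 mRNA can be read from this probe set.

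The genes around the members came from a list of 36 cholinergic genes, of which 19 were measured by a probe set of their own. Of these 19, 11 had a median above the array median, and the other 8 lay under it in every sample. That share is near the background, since 4838 of all 8251 named genes had a median above it. Among the 11, 1 gene ranged more than 2-fold (background 4.13%), and the median range was 0.36. Their highest sample was sample 3 or 5 for 3 genes each, sample 2 or 6 for 2 genes each and sample 1 for 1 gene.

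Colq, the collagen tail that anchors acetylcholinesterase at synapses, was the gene that passed 2-fold. It had signals of 110.4, 51.6, 45.8, 66.8, 126.2 and 85.5 in samples 1 to 6. Samples 5 and 1 were high and samples 3 and 2, which were the highest for Ache, were low. The range was 2.62-fold, but with the floor raised to the array median, under which samples 2 and 3 lay, it was 1.999-fold and no longer past 2-fold. Bche, butyrylcholinesterase, the related enzyme that also hydrolyses acetylcholine, had signals of only 4.29 to 18.7, all under the array median.

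Ly6h, a membrane-anchored relative of the nicotinic receptor modulator Lynx1, lay above the array median throughout. It had signals of 1891, 1461, 1837, 1649, 2022 and 1694 in samples 1 to 6, a range of 1.35-fold with sample 5 highest and sample 2 lowest. Agrn, the extracellular protein agrin that clusters acetylcholine receptors at the neuromuscular junction, had probe sets that disagreed. The brighter ranged by 0.36 on the log2 scale and was highest in sample 3 (500.8) and lowest in sample 1 (409.3). The other ranged by 0.22 and was highest in sample 2 (442.2) and lowest in sample 6 (390.0). Rapsn, the scaffold of muscle receptors, ranged by 0.35, from 79.0 in sample 2 to 103.7 in sample 5.

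Subunits of the muscle nicotinic receptor and the receptor kinase Musk served as a contrast, since they are known mainly from muscle. Rapsn, the scaffold of muscle receptors, was an exception, lying above the array median in all 6 samples. In all 6 samples Chrna1, Chrnb1, Chrnd and Chrng stayed below the array median, as did Musk and the neuronal subunit Chrna6. Their ranges went from 0 for Chrnb1 and Musk, where every value was at the floor, to 1.75 for Chrnd. The 2 of these dim genes that passed 2-fold were Chrnd (42.1 in sample 1, 5.55 in sample 4) and Chrna6 (36.6 in sample 2, 6.42 in sample 3). Chrne, the epsilon subunit, had 3 probe sets that disagreed. The brightest, whose name marks it as less specific, ran from 55.7 in sample 4 to 100.6 in sample 6, whereas the others stayed between 12.6 and 28.2 and between 3.67 and 6.36. Dim probe sets varied widely in general: 25.3% of the 3413 genes with a median under the array median ranged more than 2-fold, and the range of Chrm4 exceeded that of 95.7% of them.

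**Figure D3:**
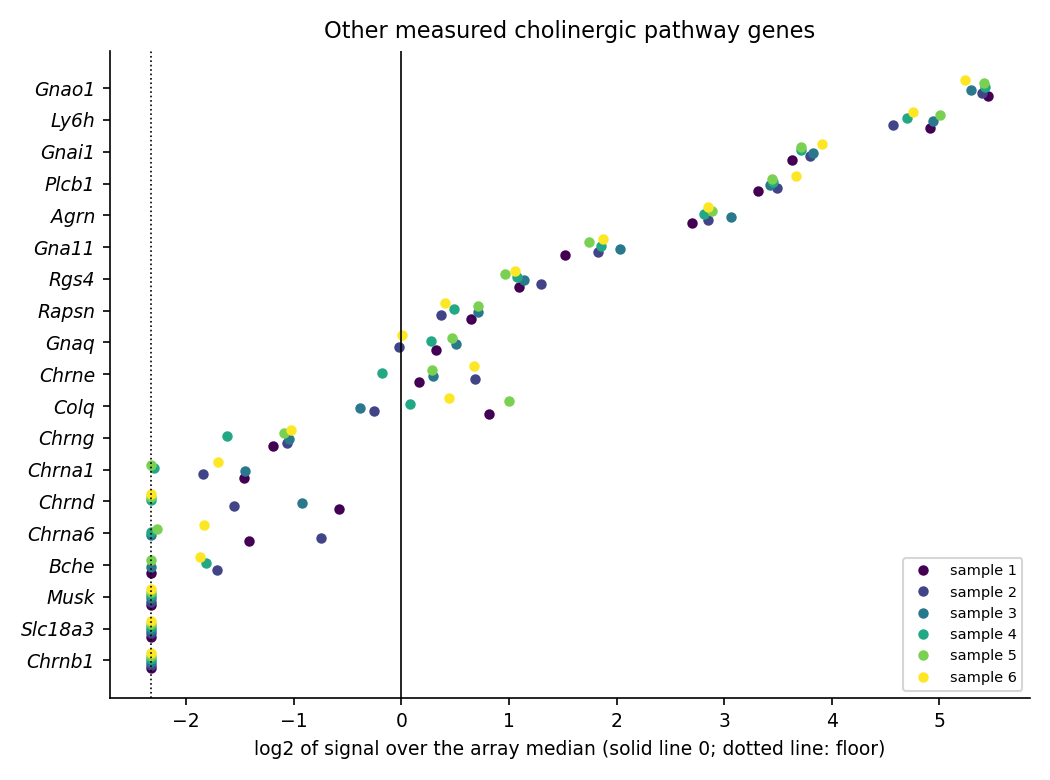
Level of the 19 measured genes of the cholinergic list in each of the 6 samples (coloured points; log2 of signal over the array median, horizontal axis), 1 row per gene. The solid line is the array median, the dotted line the floor, and Colq spreads most of the 11 genes with a median above the solid line (2.62-fold).

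Genes of the G protein pathway behind the muscarinic receptors had ranges between 0.21 and 0.53, on either side of the 0.40 of all genes above the array median. Gnaq and Gna11, the alpha subunits through which M1 acts, had ranges of 0.53 and 0.51, and Plcb1, the phospholipase they activate, had 0.35. Gnai1 and Gnao1, the Gi and Go subunits of M4 signalling, ranged by 0.28 and 0.21, and Rgs4, which speeds the turn-off of these G proteins, by 0.34. Gnaq was highest in sample 3 (0.51 on the log2 scale) and lowest in sample 2 (-0.02). Gna11 and Chrm1 shared their highest sample after scaling, sample 3, and Gna11 was lowest in sample 1 at a signal of 179.7. Other probe sets of the same genes widened some of these ranges: 1 for Gna11 ranged by 1.05, from 63.2 in sample 1 to 124.6 in sample 3. The other for Gnai1 ranged by 0.50, and the others for Plcb1 by 0.80 and 0.27. Those for Gnao1 ranged from 0.41 to 0.97, the widest with signals of only 4.06 to 24.7.

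For each member above the array median, the 3 genes whose log2 values followed it most closely over the 6 samples were taken from the genes with at least the median range. Likeness was measured by Pearson's r, given as a description with no p-value, since these are the highest of 2418 or 2419 genes compared. All points share the same 6 arrays and their scaling. Nearest to Ache were Bex1, a small neuronal adaptor protein (r = 0.99, rho = 0.94), Pmm1, a phosphomannomutase (r = 0.97, rho = 0.77), and Pcsk1n, an inhibitor of prohormone convertase (r = 0.97, rho = 0.94). Bex1 had signals of 157.4, 165.8, 167.4, 125.3, 132.3 and 134.6 in samples 1 to 6, high in the same 3 samples as Ache. Pcsk1n ran from 2116 in sample 4 to 2761 in sample 3.

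Nearest to Chrm1 were Hmgn5, a nucleosome-binding protein (r = 0.98), Dnajc2, a ribosome-associated chaperone (r = 0.97), and Reps1, an endocytic adaptor (r = 0.97). Dnajc2 and Reps1 put the samples in the very order of Chrm1 (rho = 1), with Dnajc2 at 136.7 in sample 6. Nearest to Chrna7 were P3h3, a collagen prolyl hydroxylase (r = 0.98), Plekho1 (r = 0.98) and Rdh11, a retinol dehydrogenase (r = 0.97), each highest in sample 1, with Rdh11 at 375.3 there. An r above 0.9 was reached by 52 genes for Ache and by 15 each for Chrm1 and Chrna7.

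**Figure D4:**
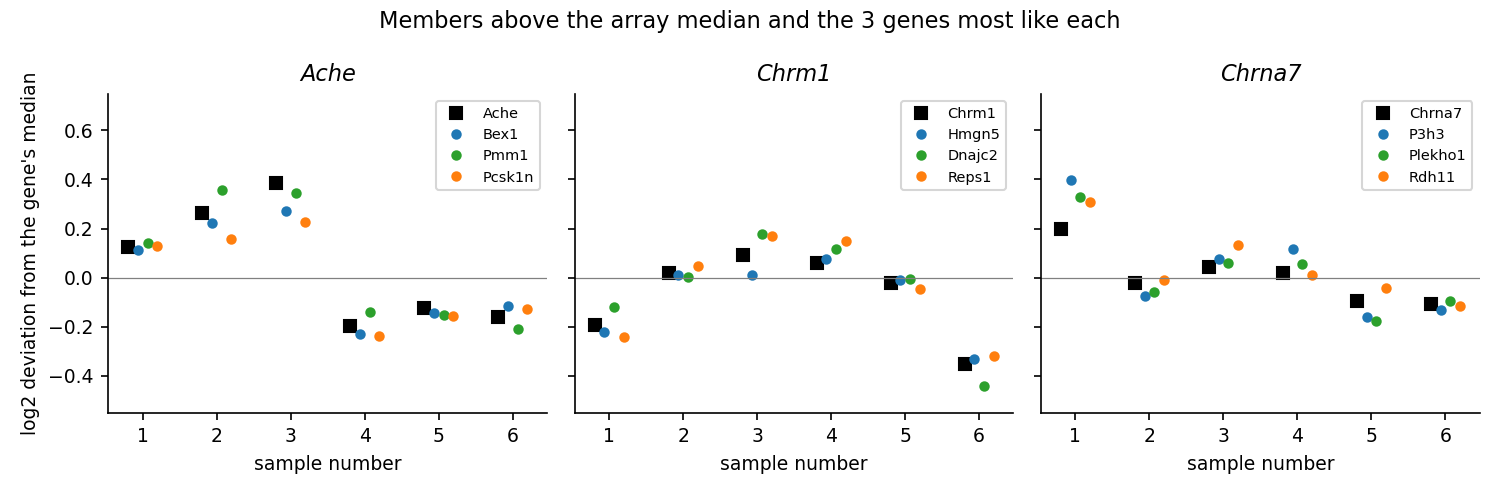
Distance of each log2 value from the median of its gene (vertical axis) in samples 1 to 6 for Ache, Chrm1 and Chrna7 (black squares), each with the 3 genes most like it (coloured circles). The Ache panel is above 0 in samples 1 to 3 and below it in samples 4 to 6, the Chrm1 panel is lowest in sample 6, and the Chrna7 panel is highest in sample 1.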

How the data were processed

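RNA from 6 hippocampus samples was measured on 6 arrays of 12488 probe sets, of which 66 are controls. The deposited table holds linear signal intensity for each probe set. The sources used here do not give the scanner or how the authors summarised and scaled it. In the values, the mean between the 2nd and 98th percentile was close to 150 on every array, all values are above 0, and no pair of the 15 pairs of columns was identical. Column medians were 62.8, 61.4, 59.8, 63.3, 63.1 and 62.8 for samples 1 to 6.

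The platform annotation gave 1 gene symbol to 10833 probe sets (8251 genes), and these alone were named. Another 396 carried several symbols and 1193 none. RefSeq gene identifiers (GRCm38.p6 table, names only) matched 10817 and changed 0 symbols. Each array was divided by its median without controls, values under 0.2 were raised to 0.2, and log2 was taken. Where a gene had several probe sets, the brightest on average stood for it. A gene counted as above the array median when its median log2 value was over 0. Pairs of genes were tested by exact permutation over all 720 pairings, two-sided, with Benjamini-Hochberg adjustment. Scripts ran in Python 3.11.15 with NumPy 2.4.6, pandas 2.3.3 and SciPy 1.17.1, and were tested on simulated data. Named genes were all members, the cholinergic list, Elavl4, markers beside a result and the 3 genes most like each member above the array median. The members, lists and rules were chosen with earlier results of these data known.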

Additional observations from a re-analysis of the deposited data

Results flagged for a closer look

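Of 21 member and list genes whose 6 values were not all equal, 2 had a sample far from the others, its gap to the nearest sample exceeding Dixon's 95% critical share of the whole range. Chance gives about 1 in 20. Chrm4 in sample 2 had a gap of 0.933 of the range (43.5 against 9.32 to 13.7 elsewhere), all under the array median. For 3 of the other samples the value was the floor, which enlarges this share, and with no floor it was 0.773. Sample 2 is also the sample with another le code in its title, of unknown meaning. Chrng in sample 4, a muscle receptor subunit, had a gap of 0.711 (20.6 against 27.4 to 30.9), also under the array median throughout, and its second probe set was instead lowest in sample 2.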

How the results depend on the processing

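The alternatives were quantile normalization, no scaling, no floor, a floor at the array median, the mean of probe sets and each sample left out. The count of members above the array median with a range past 2-fold was 0 with quantile normalization and with no scaling, and 1 with no filter on low values, through Chrm4. The floors and the mean of probe sets cannot change it, since these members have 1 probe set each and lie above the array median throughout, and leaving out a sample can only narrow a range. The count of pairs called was 0 with quantile normalization, no scaling and Spearman correlation, and ran from 0 to 1 with single samples left out. Of 55 recomputed ranges, 33 were identical to the reported value because the setting could not alter them. There the gene had 1 probe set, the floor touched no value, or the sample left out was not the only highest or lowest. Those 33 are therefore no sign of stability. Of the other 22, 18 moved by less than the SD of the gene over the 6 samples. With the floor at the array median the ranges of Chrm4 and Chrnb2 were 0. With 1 sample left out, the range of Chrm4 lay between 0.12 and 1.82, that of Chrna7 between 0.15 and 0.31 and that of Chrm1 between 0.28 and 0.44. The range of Ache lay between 0.46 and 0.58 with 1 sample left out and was 0.50 with no scaling. The r of each likeness gene was computed again under quantile normalization, no scaling and each sample left out, an alternative chosen after seeing the data. The lowest was 0.89, for Rdh11 with Chrna7 without sample 1. The likeness genes were picked for the highest r on the same arrays. A high r here follows largely from that choice and is no separate sign of likeness. No paired analysis was possible because no label gives a group. The number of arrays limits the precision, and values under the array median are not shown to exceed background.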

Other observations

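The widest step in the order of the samples for Ache, 18.7%, separated sample 5 (268.3) from sample 1 (316.9), so that the signals fell into 256.0, 260.8 and 268.3 in samples 4, 6 and 5 and 316.9, 341.2 and 362.7 in samples 1, 2 and 3. Pcsk1n, whose product inhibits a prohormone convertase, fell likewise into 2116, 2232 and 2266 in samples 4, 5 and 6 and 2694, 2701 and 2761 in samples 2, 1 and 3. The summed signal of 5 choroid plexus genes parted the same samples in the opposite direction. It was 134, 141 and 335 in samples 1 to 3 and 1802, 723 and 2133 in samples 4 to 6. The thalamus and microglia sums parted these samples in the same direction as choroid plexus. Within the choroid plexus list, Aqp1 was instead highest in sample 1. The part of these tissue components in the Ache values was not tested. Chrm1, Chrna7 and Colq did not part samples 1 to 3 from samples 4 to 6. No label tells what these samples share, and Pcsk1n was named because it follows Ache.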
